A study of Mus musculus with 7 samples.

Results

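Creb3l3, which encodes an endoplasmic reticulum (ER)-anchored transcription factor of hepatocytes, was examined in cultured mouse liver slices together with 4 genes described as its targets in the control of triglyceride, Fgf21, Apoa4, Apoa5 and Apoc2. These 5 genes, of the 55487 listed in the count table, were found by matching Ensembl identifiers to the symbols of GENCODE M21 on GRCm38. Creb3l3 was chosen because its level in these same libraries was high with valproate, so its difference between the groups is described here without a test. The question was whether the 4 targets followed.

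RNA came from precision-cut liver slices (PCLS), 250 μm thick and 3 mm in diameter, of healthy adult male Balb/c mice, for which no genetic change is given. All slices were kept in supplemented Williams' medium E at constant shaking and collected on day 3. The 3 CTR libraries came from medium without drug and the 4 VPA libraries from medium with 2.5 mM valproic acid sodium salt, an inhibitor of class I histone deacetylases. The labels number the slice cultures 71, 72 and 74 in both groups and 73 in VPA only, but do not say what the number marks or how many slices went into a library. The study's methods count each liver as a separate biological repeat, and as many repeats are given for the RNA sequencing as there are culture numbers, but no liver is tied to a library or a culture number. The p-values measure the spread between these libraries, which may be technical where libraries do not come from separate animals.

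The product of Creb3l3, CREB3L3 (also called CREBH), is made as a precursor held in the ER membrane. When it is moved to the Golgi, site-1 and site-2 proteases cut it, and the freed part, which carries a basic leucine zipper (bZIP) that binds DNA, enters the nucleus. In liver it is best known from fasting, where it acts beside the nuclear receptor PPARA. Fgf21 encodes a hormone of the fasted liver. APOC2 is the cofactor that lipoprotein lipase needs to cut triglyceride, APOA5 favours that lipase, and APOA4 is an apolipoprotein of particles rich in triglyceride.

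In GRCm38, Creb3l3 (ENSMUSG00000035041) spans bases 81084324 to 81098874 of chromosome 10 on the − strand, and no other annotated gene overlaps it. Apoa4 (ENSMUSG00000032080, chromosome 9, 46240696 to 46243459) and Apoa5 (ENSMUSG00000032079, chromosome 9, 46268633 to 46271919) lie on the + strand in a cluster with Apoa1 and Apoc3. Apoc2 (ENSMUSG00000002992, chromosome 7, 19671579 to 19677941) lies on the − strand in a cluster with Apoe, Apoc1 and Apoc4. Fgf21 (ENSMUSG00000030827) lies elsewhere on chromosome 7, from 45613886 to 45615490, on the − strand. All 5 are protein-coding. Apoc2 shares its strand with the overlapping gene Gm44805, while Gm10680 and Gm47528 overlap Apoa4 and Gm47544 overlaps Apoa5 from the other strand. These 4 overlapping genes were at 0 in every library.

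The 250 bases before the RefSeq start (GRCm38.p6) are shown for the 2 members whose VPA libraries all lay above the CTR libraries and for Fgf21, which was at 0 throughout. Capitals mark TGACG, the core of the cyclic AMP response element, and CCACG, a part of the ER stress element, on either strand.
Creb3l3 (chr10:81098873-81099122, - strand): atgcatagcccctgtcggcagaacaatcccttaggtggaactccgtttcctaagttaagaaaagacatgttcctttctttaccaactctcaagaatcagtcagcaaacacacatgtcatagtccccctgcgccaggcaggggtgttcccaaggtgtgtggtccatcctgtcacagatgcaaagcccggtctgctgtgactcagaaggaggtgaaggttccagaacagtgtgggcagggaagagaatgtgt
Apoa4 (chr9:46240594-46240843, + strand): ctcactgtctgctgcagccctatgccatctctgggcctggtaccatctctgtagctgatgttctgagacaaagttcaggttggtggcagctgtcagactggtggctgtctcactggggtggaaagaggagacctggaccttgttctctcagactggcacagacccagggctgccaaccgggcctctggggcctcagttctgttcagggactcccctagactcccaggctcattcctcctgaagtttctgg
Fgf21 (chr7:45615491-45615740, - strand): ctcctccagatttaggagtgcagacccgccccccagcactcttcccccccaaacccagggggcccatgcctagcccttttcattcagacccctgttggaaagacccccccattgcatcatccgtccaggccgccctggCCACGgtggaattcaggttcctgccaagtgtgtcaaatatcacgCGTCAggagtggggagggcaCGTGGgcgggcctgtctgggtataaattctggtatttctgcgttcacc
The full element TGACGTCA, which contains TGACG, and the DR1 repeat bound by PPARA were searched as well and were found in none of the members' windows. The Fgf21 window held 1 TGACG and 2 CCACG, and the Apoc2 window held 1 of each. The Apoa5 window held CCACG on both strands, overlapping in 1 palindrome. A second RefSeq start of Creb3l3, 6283 bases inside the gene, was preceded by 1 TGACG and 1 CCACG, and 3′ end counts cannot tell the starts apart. The RefSeq start of Apoa4 lies 148 bases downstream of the start in GENCODE, so the last 148 bases of its window lie inside the GENCODE gene. Of the 32851 promoter windows of the same length, 17.8% held TGACG, 28.3% held CCACG, 1.55% held TGACGTCA and 0.0335% held the DR1 repeat. A match is not a bound site, and these letters were absent from the shown windows of Creb3l3 and Apoa4.

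The libraries held 1743675 to 4773750 counts on genes in CTR and 1400887 to 3102450 in VPA. Levels are given as CPM, the counts of a gene brought to a common library size with TMM scaling, and a fold change compares the groups on that scale. Because each transcript is read at its 3′ end, levels are compared between libraries and not between genes. A 0 in this table need not mean that few reads were sampled: 124 genes were listed at 0 in a single library although each of the other 6 held 50 counts or more. Such isolated zeros numbered 0 to 7 in the CTR libraries, and in VPA replicates 1 to 4 they numbered 60, 7, 25 and 24. Mitochondrial genes took 14.5% to 27.7% of the counts in CTR and 23.9% to 32.5% in VPA, and their part in the results was not tested.

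Creb3l3 was higher in all 4 VPA libraries than in any CTR library. It stood at 118, 78.8 and 115 CPM in CTR replicates 1 to 3, from 299, 400 and 210 counts. In VPA replicates 1 to 4 it stood at 689, 520, 668 and 603 CPM, from 1056, 1691, 832 and 798 counts. The lowest VPA library was thus far above the highest CTR library, and the spread within each group was small. The means were 104 ± 21.8 CPM (SD, n = 3) and 620.0 ± 76.2 CPM (SD, n = 4), and the fitted log2 fold change was 2.58 (standard error, SE, 0.20), or 5.98-fold.

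Among all 10876 genes tested, 38 had a larger log2 fold change than Creb3l3. Of these, 1 had a mean CPM at least that of Creb3l3, and the others were less counted. This rank rests on the values for which Creb3l3 was chosen. Within the same culture number the Creb3l3 level was 5.80 times as high with VPA in culture 71, 5.12 times in culture 72 and 6.59 times in culture 74. Without each library in turn its log2 fold change lay between 2.40 and 2.67.

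**Figure D1:**
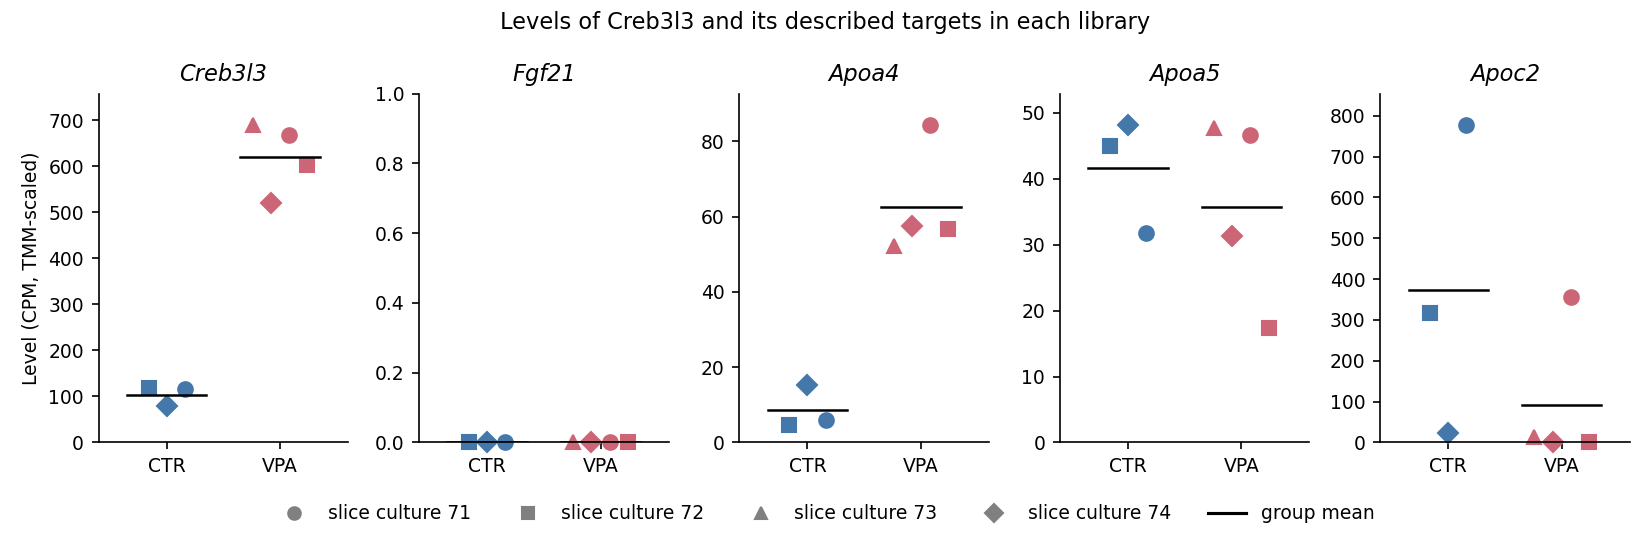
Level of each member (CPM, vertical axis from 0, a scale of its own for each gene) in the 3 CTR and 4 VPA libraries. Each point is 1 library, its shape gives the slice culture number and the line is the group mean. Creb3l3 and Apoa4 do not overlap between the groups, Apoa5 and Apoc2 do, and Fgf21 is at 0 in all 7 libraries.

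Fgf21 was listed at 0 in every library, so no fold change could be given. For counting error only, the upper limit of a 0 is 3 counts, or 0.591 to 1.64 CPM in CTR and 0.922 to 2.41 CPM in VPA. Since well-counted genes were also listed at 0 in single libraries, this limit was not taken as the level of Fgf21 RNA. Altogether 29401 of the 55487 genes were at 0 in all libraries. Among genes of the lists used here, these included Cidec, the gene of a lipid droplet protein and another described target, Fgfr4, the main FGF receptor of hepatocytes, and Cyp4a10 and Cyp4a14, 2 fatty acid hydroxylases controlled by PPARA.

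The receptor side of FGF21 was little counted. Klb, its coreceptor, had 36 counts over all libraries, at 0.788 to 1.64 CPM in CTR and 2.27 to 5.62 CPM in VPA, and did not pass the filter on low counts. Fgfr1, a receptor that FGF21 uses with KLB, had 15.7 ± 2.42 CPM (SD, n = 3) in CTR and 19.5 ± 6.89 CPM (SD, n = 4) in VPA, with overlapping groups.

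Apoa4 was the 1 target that was higher in all 4 VPA libraries than in any CTR library. It stood at 4.73, 15.4 and 6.03 CPM in CTR replicates 1 to 3, from 12, 78 and 11 counts. In VPA replicates 1 to 4 it stood at 52.2, 57.5, 84.3 and 56.6 CPM, from 80, 187, 105 and 75 counts. CTR replicate 2 was the highest CTR library and VPA replicate 3 the highest of all, and the groups did not overlap. In 4.44% of all genes tested all VPA libraries lay above all CTR libraries.

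The means of Apoa4 were 8.71 ± 5.81 CPM (SD, n = 3) and 62.7 ± 14.6 CPM (SD, n = 4), with a log2 fold change of 2.80 (SE 0.47, 95% interval 1.71 to 3.88), or 6.96-fold. edgeR's quasi-likelihood test gave an unadjusted p of 0.000392, which did not hold after Benjamini-Hochberg adjustment over all genes tested (adjusted p = 0.142). At an adjusted p under 0.05 edgeR called 0.00919% of all genes tested higher and none of the targets. That share is 1 gene, Creb3l3 itself, which was chosen for its rise, so nothing is read from it. The two-sided exact permutation test of log2 CPM gave p = 0.0286, the smallest that 3 libraries against 4 allow. The call depended on the method: the adjusted p of Apoa4 was 2.6e-05 with DESeq2 and 0.00833 when a gene needed 10 counts in each library, and 0.0804 to 0.519 under the other alternatives that kept all libraries, the last with a block for the slice culture number.

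Culture 74 had the smallest difference in Apoa4. There its level was 3.74 times as high with VPA, against 14.0 times in culture 71 and 12.0 times in culture 72.

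**Figure D2:**
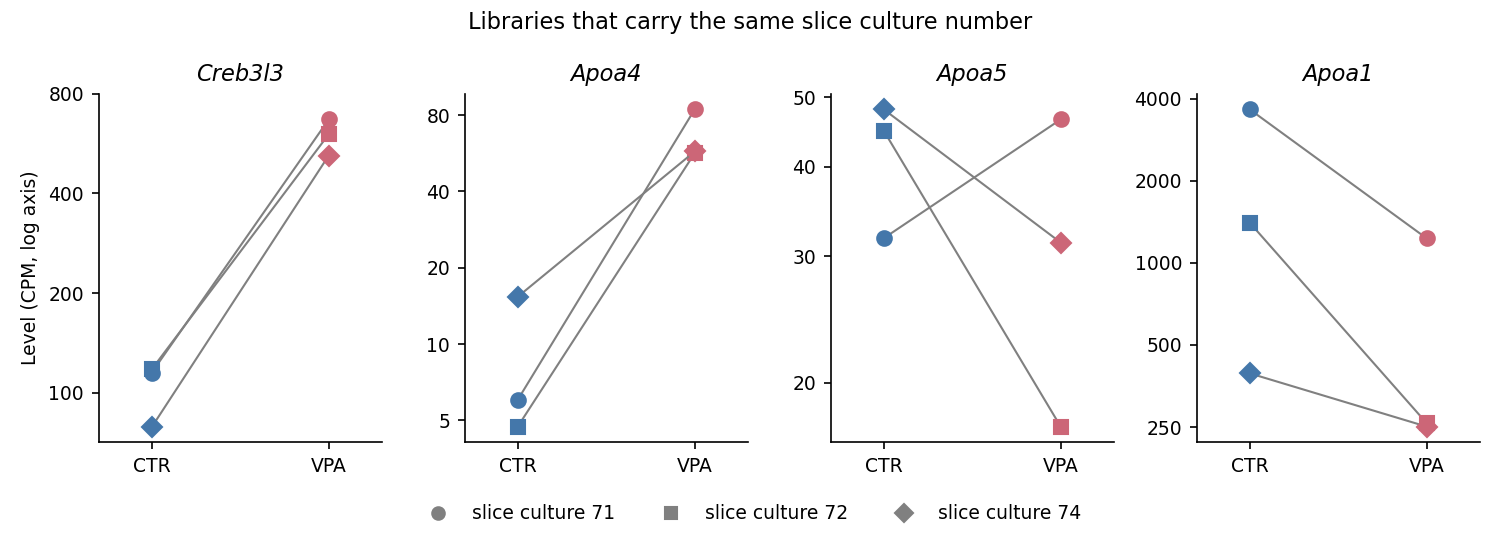
Levels (CPM, log axis) of Creb3l3, Apoa4, Apoa5 and Apoa1 in the CTR and VPA libraries that carry the same slice culture number, joined by a line. Creb3l3 and Apoa4 are higher with VPA in all 3 cultures, Apoa1 is lower in all 3, and Apoa5 is higher in culture 71 and lower in cultures 72 and 74.

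Apoa5, which lies in the same cluster as Apoa4, overlapped between the groups. It stood at 44.9, 48.1 and 31.8 CPM in CTR replicates 1 to 3 and at 47.7, 31.4, 46.6 and 17.4 CPM in VPA replicates 1 to 4. The lowest value was that of VPA replicate 4, and VPA replicates 1 and 3 lay within the CTR range. Its log2 fold change was −0.22 (SE 0.38, 95% interval −1.10 to 0.65, edgeR, adjusted p = 0.952), an interval that includes 0. The exact permutation p was 0.571.

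Apoc2 varied more between libraries than between groups. It stood at 318, 23.5 and 777 CPM in CTR replicates 1 to 3, from 806, 119 and 1417 counts. In the VPA libraries it stood at 12.4 CPM in replicate 1 and 356 CPM in replicate 3, and it was listed at 0 in replicates 2 and 4. The groups overlapped, and both held values that differed by over an order of magnitude.

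The log2 fold change of Apoc2 was −2.04 (SE 1.89, 95% interval −6.44 to 2.36, edgeR, adjusted p = 0.901; exact permutation p = 0.143). It was −6.68 without VPA replicate 3, −0.94 without CTR replicate 3 and −1.03 without the libraries in which the gene was listed at 0. With limma-voom it was −6.84. The data on Apoc2 thus do not fix the size of a difference.

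Of the 3 targets with enough counts to be tested, 1 had an unadjusted p under 0.05 and was higher. Of all genes tested, 3.65% were higher at that p and 8.28% had it in either direction. None of the 3 passed the adjusted threshold in edgeR, 1 did in DESeq2, which called 0.256% of genes higher and 0.754% lower, and limma-voom called none of the 3. The median log2 fold change of these 3 targets was −0.22, that of Apoa5, against −0.06 for all genes tested.

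Neighbours in the apolipoprotein clusters were examined because genes of a cluster can share control regions. In the cluster of Apoa4, Apoa1 (chromosome 9, 46228580 to 46230466), which encodes the main protein of high-density lipoprotein and is itself a described target, had 1404, 393 and 3656 CPM in CTR replicates 1 to 3. In VPA replicates 1 to 4 it had 759, 251, 1229.9 and 258 CPM. Apoa1 thus had a wide spread in both groups, and its log2 fold change was −1.54 (SE 0.81, edgeR, adjusted p = 0.707). It was −0.56 without CTR replicate 3 and between −2.11 and −1.27 without any other single library. Apoc3, whose product slows triglyceride clearance, had 104 ± 29.0 CPM (SD, n = 3) and 86.1 ± 37.6 CPM (SD, n = 4) and a log2 fold change of −0.27 (SE 0.35, edgeR, adjusted p = 0.937). Within cultures 71, 72 and 74 the Apoc3 level with VPA was 0.73, 0.64 and 0.62 times that in CTR.

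Relative to each of these neighbours, Apoa4 was higher in every VPA library than in any CTR library. The log2 ratio to Apoa1 ran from −9.06 to −4.60 in CTR and from −3.85 to −2.11 in VPA. The ratio to Apoc3 ran from −3.93 to −3.09 and from −1.40 to 0.34, and that to Apoa5 from −3.04 to −1.59 and from 0.13 to 1.66. 

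**Figure D3:**
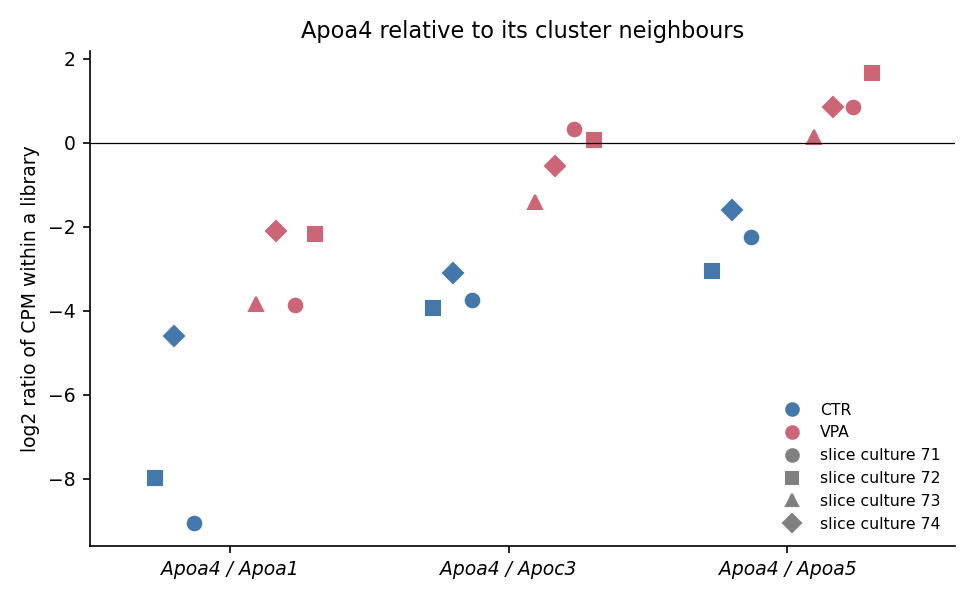
Log2 ratio of Apoa4 to Apoa1, Apoc3 and Apoa5 within each library (vertical axis), with 1 point per library, CTR in blue and VPA in red, and the shape giving the slice culture number. For all 3 neighbours the 4 VPA libraries lie above the 3 CTR libraries.

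In the cluster of Apoc2, Apoe, which encodes a ligand of lipoprotein receptors, had 2774 ± 1007 CPM (SD, n = 3) in CTR and 2656 ± 810 CPM (SD, n = 4) in VPA. Its log2 fold change was −0.06 (SE 0.32, edgeR, adjusted p = 0.981). The sign turned when CTR replicate 3, VPA replicate 2 or VPA replicate 4 was left out. Apoc1, which encodes a small exchangeable apolipoprotein, had a log2 fold change of −0.31 (SE 0.30, edgeR, adjusted p = 0.903). Apoc4, which encodes a minor apolipoprotein, had 54.4, 55.4 and 111 CPM in the CTR libraries and was listed at 0 in VPA replicates 1, 3 and 4, with 22.4 CPM in VPA replicate 2. It lay lower in every VPA library, as 7.41% of all genes tested did (unadjusted p = 0.0374, edgeR, adjusted p = 0.571). Of the 5 neighbours tested in both clusters, 0 were higher and 5 were lower with VPA in the fit, 1 of them at an unadjusted p under 0.05, beside 4.62% of all genes tested. The fitted value of Apoc4, −3.50 with all libraries, was −10.4 without VPA replicate 2, where every remaining VPA library was at 0, and is no measure of size.

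A further list held 14 genes described elsewhere as targets of CREB3L3, of which 12 were tested. In it 7 genes were higher and 5 lower in the VPA group, the median log2 fold change was 0.14, and 1 of the 12 had an unadjusted p under 0.05, about the share of all genes tested (8.28% in either direction). This was Cpt1a, which encodes the gate of mitochondrial fatty acid oxidation. It had 41.8, 35.9 and 47.7 CPM in CTR replicates 1 to 3 and 54.8, 60.9, 85.1 and 77.8 CPM in VPA replicates 1 to 4. Cpt1a was thus higher in every VPA library than in any CTR library, as were 4.44% of all genes tested. Its log2 fold change was 0.74 (SE 0.23, unadjusted p = 0.0125, edgeR, adjusted p = 0.447). Pck1, an enzyme of glucose synthesis, had 67 counts in all and was not tested.

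Of 13 genes of triglyceride lipolysis and FGF21 reception, 10 were tested, with 4 higher, 6 lower and a median log2 fold change of −0.22. An unadjusted p under 0.05 was found for 1 of the 10, in the lower direction, beside 4.62% of all genes tested. Lpl, the lipase that APOC2 and APOA5 act on, had a log2 fold change of −0.30 (SE 0.23, edgeR, adjusted p = 0.852).

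A list of ER stress and processing genes held relatives of CREB3L3, the proteases that release it, Xbp1, a bZIP factor of the unfolded protein response, and Scap, which escorts other membrane-bound factors to the same proteases. Of its 10 genes, 9 were tested, with 4 higher, 5 lower, a median of −0.05 and 0 at an unadjusted p under 0.05, near the background of 8.28% of all genes tested. The smallest p was that of Atf6, an ER stress sensor of the same membrane-bound kind, at 34.2 ± 4.47 CPM (SD, n = 3) in CTR and 46.2 ± 3.83 CPM (SD, n = 4) in VPA. Atf6 was higher in every VPA library than in any CTR library, as were 4.44% of all genes tested (log2 fold change 0.43, SE 0.21, edgeR, adjusted p = 0.650). Mbtps1 and Mbtps2, which encode the site-1 and site-2 proteases, had log2 fold changes of −0.86 (SE 0.95) and −0.05 (SE 0.46), and Mbtps1 was listed at 0 in VPA replicate 1. Mbtps1 was lower in every VPA library (0 to 60.2 CPM) than in any CTR library (61.9 to 87.2 CPM), as were 7.41% of all genes tested. Creb3l4 was at 0 in every library.

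Of 10 regulators that act upstream of or beside Creb3l3, 7 were tested, with 5 higher and 2 lower and a median of 0.27. An unadjusted p under 0.05 was found for 2 of the 7, both higher, beside 3.65% of all genes tested. Ppargc1a, the coactivator PGC-1α of the fasting response, had 4.33, 3.35 and 10.4 CPM in CTR and 17.0, 18.8, 22.5 and 23.4 CPM in VPA. Ppargc1a was thus higher in every VPA library than in any CTR library, as were 4.44% of all genes tested. Its log2 fold change was 1.77 (SE 0.55, unadjusted p = 0.0127, edgeR, adjusted p = 0.447). Foxo1, a transcription factor restrained by insulin, had 34.4 ± 6.33 CPM (SD, n = 3) and 67.1 ± 30.4 CPM (SD, n = 4), with 113 CPM in VPA replicate 2 (log2 fold change 0.97, SE 0.35, edgeR, adjusted p = 0.541). Without that library the log2 fold change of Foxo1 was 0.60. Ppara itself had a log2 fold change of 0.42 (SE 1.25) and was listed at 0 in VPA replicate 2.

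Genes that PPARA controls were counted beside the members, since Fgf21 and Creb3l3 both respond to this receptor. Of 12, 9 were tested, with 8 higher, 1 lower and a median log2 fold change of 0.75, and 3 of the 9 had an unadjusted p under 0.05, all higher, beside 3.65% of all genes tested. Pdk4, which encodes a kinase that spares glucose, had a log2 fold change of 2.56 (SE 1.01, edgeR, adjusted p = 0.571) and was listed at 0 in CTR replicate 3. Its log2 fold change was 2.01 without CTR replicate 3 and 3.76 without CTR replicate 2. Acot2, a mitochondrial acyl-CoA thioesterase, had 1.27 (SE 0.46, edgeR, adjusted p = 0.537) with overlapping groups, and 0.81 without VPA replicate 1. The ATF4 stress response is the other route known to raise Fgf21. Of its 10 genes, 9 were tested, with 5 higher, 4 lower, a median of 0.23 and 0 at an unadjusted p under 0.05, again near the background of 8.28%. The smallest p was that of Trib3, which encodes a pseudokinase (log2 fold change −0.94, SE 0.51, edgeR, adjusted p = 0.710), and leaving out CTR replicate 2 gave −0.50 while leaving out VPA replicate 2 gave −1.39. In edgeR, 0 genes of these related lists passed the adjusted threshold.

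**Figure D4:**
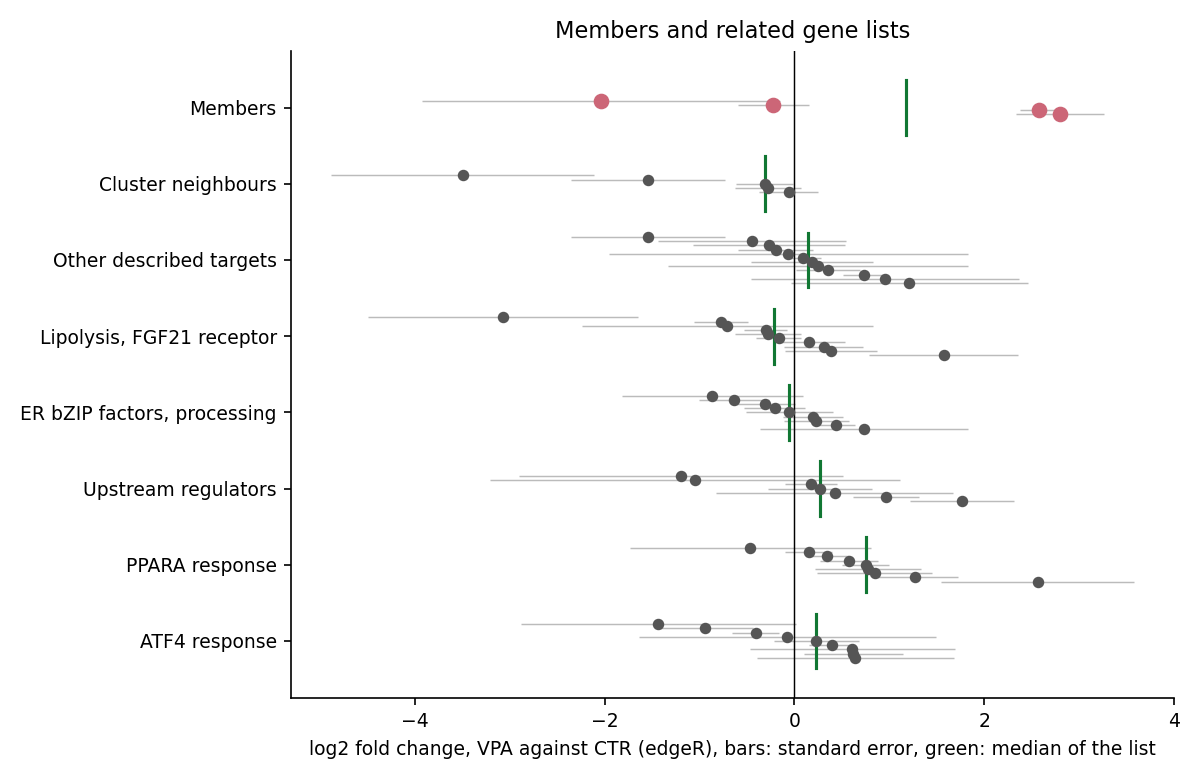
Log2 fold change, VPA against CTR, from edgeR (horizontal axis) for the tested genes of each list, with bars of 1 standard error and the median of each list in green. The green line of the members (1.18) includes Creb3l3, which was chosen for its rise. Without Creb3l3 the median of the tested targets was that of Apoa5 (−0.22). Of the members in red, Creb3l3 (2.58) and Apoa4 (2.80) lie to the right of every gene of the other lists, with Pdk4 closest (2.56, and 2.01 to 3.76 without 1 library), and Apoa5 (−0.22) and Apoc2 (−2.04) do not.

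Since Creb3l3 and its targets are genes of hepatocytes, the members were set against 12 hepatocyte markers. Of these, Tat, Cps1 and Cyp2e1 were listed at 0 in 4, 2 and 1 libraries. In bulk RNA, fewer cells of a type and less RNA per cell cannot be told apart. The summed level of the markers was 9500 to 21734 CPM in CTR and 6528 to 20450 CPM in VPA, which overlapped, and their median log2 fold change was 0.01 with 0 of 11 tested at an unadjusted p under 0.05, which with 8.28% of all genes tested is near the background. The log2 ratio of Creb3l3 to the mean of these markers was −1.02 ± 0.49 (SD, n = 3) in CTR and 1.33 ± 0.40 (SD, n = 4) in VPA, and was higher in every VPA library.

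The same ratio was tested for 3 targets. For Apoa4 it was −4.61 ± 0.92 (SD, n = 3) in CTR and −1.98 ± 0.56 (SD, n = 4) in VPA, a difference of 2.63 (two-sided exact permutation test, p = 0.0286). Against Alb alone, the albumin gene, the difference was 2.50 (exact permutation test, p = 0.0571). For Apoa5 the difference was −0.54 (exact permutation test, p = 0.257) and for Apoc2 it was −4.83 (exact permutation test, p = 0.114), where the zeros of Apoc2 set the size.

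Markers of other cells were counted in the same libraries. The 8 stellate cell markers summed to 1403 to 2860 CPM in CTR and 697 to 999 CPM in VPA, with 8 of 8 lower and 3 at an unadjusted p under 0.05 (4.62% of all genes tested were lower at that p), namely Col1a1, Col1a2 and Col3a1, which encode chains of collagens I and III. Their log2 fold changes were −1.66, −1.58 and −1.51 (edgeR, adjusted p = 0.112, 0.213 and 0.417). With DESeq2 the adjusted p was 4.4e-07 for Col1a1, 0.000539 for Col1a2 and 0.0613 for Col3a1. The summed level of 6 endothelial markers was 208 to 240 CPM in CTR and 69.2 to 236 CPM in VPA. That of 6 macrophage markers was 128 to 166 CPM in CTR and 163 to 284 CPM in VPA, with Adgre1 and Marco at 0. That of 6 cholangiocyte markers was 434 to 719 CPM in CTR and 276 to 786 CPM in VPA, where Cldn4, a tight junction gene, differed by −2.11 on the log2 scale (edgeR, adjusted p = 0.142, and 9.6e-05 with DESeq2). The smallest p among the tested markers was that of Ambp in hepatocytes, Cdh5 in endothelium and Cd68 in macrophages, with log2 fold changes of −0.60, −2.45 and 0.65 (edgeR, adjusted p = 0.849, 0.718 and 0.672). Without CTR replicate 3 that of Ambp was −0.098 and that of Cd68 0.40, and Ambp was −0.95 without VPA replicate 3. Cdh5 was listed at 0 in VPA replicates 1 and 2, and its value lay between −3.18 and −1.98 without any 1 library. The part of these cells in the levels of Creb3l3 and Apoa4 was not tested. Enterocytes, the other cells known to express both genes, were barely seen: 6 markers summed to 0 to 3.55 CPM in CTR and 1.61 to 6.76 CPM in VPA, and Alpi, Lct and Cdx2 were at 0 in every library.

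The genes with a pattern most like that of Creb3l3 were ranked among 10622 genes with a mean of at least 5 CPM. The measure was the root mean square difference in log2 CPM over the 7 libraries, after each gene was centred on its CTR mean. The nearest 8 were Gcnt1 (0.46), Jph3 (0.47), Tmem56 (0.55), Adora1 (0.61), Iglon5 (0.61), Kif5c (0.62), Gm44550 (0.64) and Gm44144 (0.66), and they were chosen by this pattern, so that no test is given. The measure rests on the levels for which Creb3l3 was chosen, and any gene with a like difference between the groups comes near it. Of the 8, 5 had a CTR mean under 5 CPM (Gcnt1, Jph3, Kif5c, Gm44550 and Gm44144) and reached the minimum only through the VPA libraries. Tmem56, the most counted of the 8, had 16.2 to 20.8 CPM in CTR and 47.6 to 101 CPM in VPA. Adora1, which encodes an adenosine receptor, had 8.57 ± 3.68 CPM (SD, n = 3) and 36.8 ± 4.13 CPM (SD, n = 4). Gcnt1, a glycosyltransferase, and Jph3, a junctophilin, both had CTR levels below 5 CPM and came out at 14.6 ± 3.98 and 10.4 ± 3.74 CPM (SD, n = 4) in VPA.

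**Figure D5:**
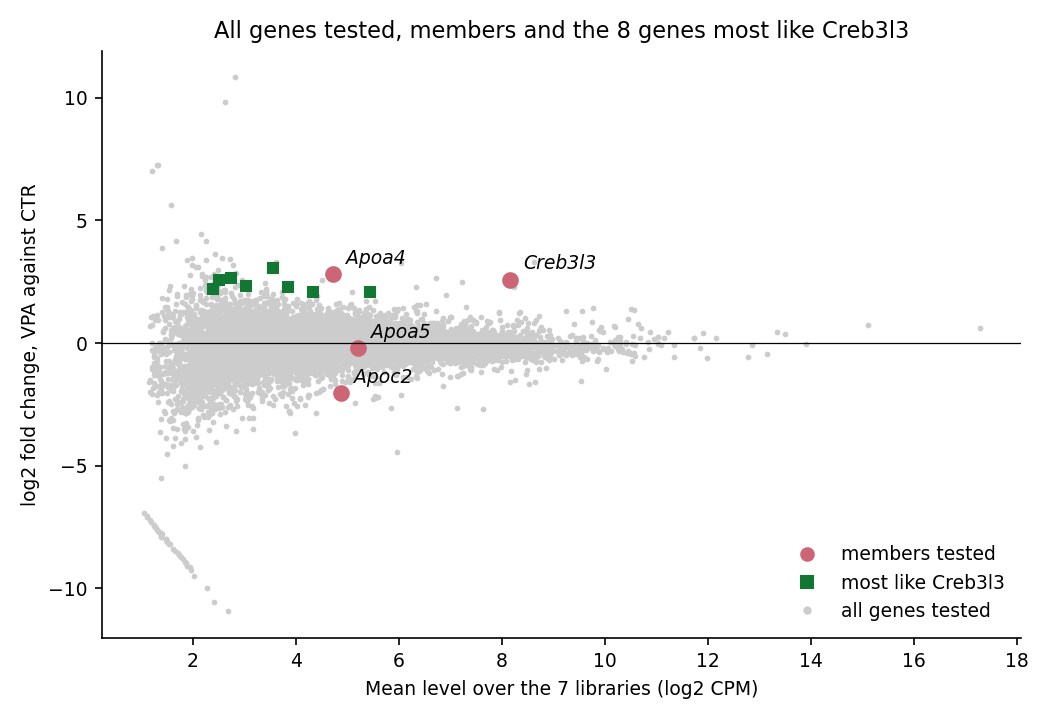
Log2 fold change, VPA against CTR (vertical axis), against the mean level over the 7 libraries (log2 CPM) for the 10876 genes tested in grey, the members tested in red and the 8 genes most like Creb3l3 in green. On the vertical axis Creb3l3 (2.58) and Apoa4 (2.80) stand high, and Apoa5 (−0.22) and Apoc2 (−2.04) lie below 0. The horizontal axis shows how deeply a gene was counted and does not rank RNA levels between genes. The diagonal line of points at the lower left is made of genes at 0 in the VPA libraries, whose fitted fold change is no measure of size.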

How the data were processed

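RNA of 3 CTR and 4 VPA slice cultures was read with 3′ end libraries (QuantSeq FWD, single-end). The authors trimmed the reads, mapped them with STAR to GRCm38 and used StringTie for genes and transcripts. They deposited raw counts per Ensembl gene without normalization. Tool versions, the counting program and how it dealt with strand and multiply mapped reads are not given in the sources used here.

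From these counts, edgeR 4.0.16 (R 4.3.3) was fitted over the 10876 genes that passed filterByExpr, with TMM scaling, a robust quasi-likelihood test, condition as the only term and Benjamini-Hochberg adjustment over all genes at 0.05. The study's methods name DESeq2, which was run as an alternative (1.42.0), with limma-voom (limma 3.58.1), other scalings and filters, replicate blocks and leaving out each library. Settings added after seeing the data were a fit without libraries at 0 for Apoc2 and a ratio to only those markers counted in every library. The values of that ratio are not reported here. log2 CPM had a prior count of 2. For single values, all 35 ways to split the 7 libraries gave an exact two-sided permutation p. The code was tested on simulated data.

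Members and lists were chosen with earlier results of these data known. Named are all members and cluster neighbours, the genes of each list with an unadjusted p under 0.05 or else its smallest p, and the 8 genes most like Creb3l3. Some genes that this rule names are not reported here. Others were named after their values were seen. Promoter sequences are those of RefSeq (GRCm38.p6), found for all 5 members and 3 of 5 neighbours. Each library was 1 replicate, and the depth of 1400887 to 4773750 counts on genes limits the precision.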

Additional observations from a re-analysis of the deposited data

Results flagged for a closer look

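The values below were set apart by 1 VPA library whose gap to the nearest of the other 3 was over 0.829 of the range of the group. Among 34 such groups examined, 7 were set apart, where chance gives about 1 in 20.

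VPA replicate 2 had 3102450 counts on genes, and the other VPA libraries had 1400887 to 1515954. Apoa4 was at 84.3 CPM in VPA replicate 3 and at 52.2 to 57.5 CPM in the others, and its log2 fold change was 2.62 without that library. Apoc2 was at 356 CPM in VPA replicate 3 and at 0 to 12.4 CPM in the others. Apoc4 was at 22.4 CPM in VPA replicate 2 and at 0 in the others. Foxo1 was at 113 CPM in VPA replicate 2 and at 47.7 to 55.4 CPM in the others. Trib3 was at 25.2 CPM in VPA replicate 2 and at 9.63 to 11.8 CPM in the others. Pdk4 was at 24.9 CPM in VPA replicate 3 and at 78.3 to 86.1 CPM in the others.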

How the results depend on the processing

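The Creb3l3 log2 fold change lay between 2.48 and 2.62 under the 10 alternatives that kept all libraries. Apoa4 lay between 2.46 and 3.03 there and was past the adjusted threshold with DESeq2 (2.79) and when a gene needed 10 counts in each library (2.76), where fewer genes were tested. Without each library in turn Apoa4 lay between 2.50 and 3.52 (adjusted p 0.145 to 0.757), Apoa5 between −0.41 and −0.01, and Apoc2 between −6.68 and −0.94. The Apoa4 ratio to hepatocyte markers was 2.50 against Alb alone (exact permutation p = 0.0571) and 2.25 to 3.14 without each library, where no split can give a p under 0.0667. Apoe lay between −0.24 and 0.25 and turned above 0 without CTR replicate 3 (0.25), VPA replicate 2 (0.092) or VPA replicate 4 (0.024).

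The number of genes changed at an adjusted p under 0.05 was 1 (1 higher, 0 lower) in edgeR, 154 (39 higher, 115 lower) with DESeq2, 10 (2 and 8) without a filter, 36 (17 and 19) when a gene needed 10 counts in each library, and 900 (397 and 503) at an unadjusted p under 0.05. Without each library in turn it was 0 to 2 changed, 0 to 1 higher and 0 to 2 lower. It was 0 without CTR replicate 1, CTR replicate 2, VPA replicate 1 or VPA replicate 3, 1 (lower) without CTR replicate 3, and 2 without VPA replicate 2 or VPA replicate 4. The cause was not tested.

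Deviations from the group means correlated by 0.107, 0.0256 and 0.0546 between libraries of the same slice culture number (cultures 71, 72 and 74). Between libraries of the same replicate number they correlated by −0.0539, 0.0546 and 0.107, where replicates 2 and 3 are the pairs of cultures 74 and 71. Such correlations cannot tell whether libraries of the same number share a liver, which was not tested. The main fit and the exact permutations took the libraries as unpaired. With a replicate block by slice culture number or by replicate number, 0 genes were changed (0 higher, 0 lower). By slice culture number Apoa4 was 3.03, Apoa5 −0.47 and Apoc2 −3.85, and by replicate number Apoa4 was 3.01, Apoc2 −3.29, Apoa5 turned to 0.00031 and Apoe to 0.028. The block changed no other call. Of the 3 cultures, 1 CTR library correlated best with the VPA library of its own number.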

Other observations

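In the CTR libraries Apoc2 and Apoa1 were ordered by slice culture number in the same way, and with VPA both were highest in culture 71. With VPA, cultures 72 and 74 were not set apart by either gene. This pattern was noticed after the values were seen and was not tested. Apoc2 was at 777 CPM in the CTR library of culture 71, 318 CPM in that of culture 72 and 23.5 CPM in that of culture 74, and with VPA it was at 356 CPM in culture 71 and at 0 in cultures 72 and 74. Apoa1 was at 3656, 1404 and 393 CPM in the CTR libraries of cultures 71, 72 and 74, and with VPA at 1229.9, 258 and 251 CPM. Trf, which encodes transferrin, was at 8822, 3684 and 2039 CPM in the same CTR libraries and at 8931, 1758 and 2893 CPM in the same VPA libraries, where culture 74 thus lay above culture 72. Creb3l3 was not ordered in this way, at 115, 118 and 78.8 CPM in those CTR libraries. Apoc3, between Apoa1 and Apoa4 in the cluster, was highest among the CTR libraries in that of culture 74, at 137 CPM. In culture 73, which is in VPA only, Apoc2 was at 12.4 CPM, Apoa1 at 759 CPM and Apoc3 at 139 CPM.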
